A study of Mus musculus with 4 samples.

Results

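The genes described are *Ly6a*, *Ly6c1*, *Ly6d*, *Ly6e*, *Psca* and *Lypd3*, 6 of the 31053 genes counted in single cells of the mouse prostate. They were chosen by name, with earlier results of these data known. They belong to the LY6/uPAR family, whose small cysteine-rich domain folds into finger-like loops and is usually held at the cell surface by a glycosylphosphatidylinositol (GPI) anchor. *Ly6a* encodes SCA-1, a surface antigen used to sort stem and progenitor cells of many tissues, the prostate included, and *Ly6c1* encodes a form of LY6C that is abundant on endothelial cells. *Ly6d* marks stratified epithelia and lymphoid progenitors, *Ly6e* is widely expressed and induced by interferon, *Psca* encodes prostate stem cell antigen, and *Lypd3* is known from squamous epithelia.

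Because *Ly6* paralogs share sequence, stretches of their coding sequences are shown first, to make plain which members a short read can tell apart. In GRCm38, the build used by the authors, 5 of the 6 genes lie within 333992 bases of chromosome 15 and all are protein coding in the GENCODE annotation. *Psca* (ENSMUSG00000022598) is at chr15:74714839-74717069 on the plus strand, *Ly6d* (ENSMUSG00000034634) at chr15:74762056-74763620 on the minus strand, and *Ly6e* (ENSMUSG00000022587) at chr15:74955051-74959905 on the plus strand. *Ly6a* (ENSMUSG00000075602) is at chr15:74994877-74998031 and *Ly6c1* (ENSMUSG00000079018) at chr15:75044018-75048830, both on the minus strand, and *Lypd3* (ENSMUSG00000057454) is at chr7:24636550-24641118 on the plus strand. *Ly6a* and *Ly6c1* are the closest pair among the members, with 83.7% identical bases over 393 aligned coding bases. The 3′ part of their coding sequences, coding bases 163 to 402 of *Ly6a* and 163 to 393 of *Ly6c1*, is printed 5′ to 3′ from the GENCODE transcripts. Capitals mark bases that differ from the partner or have no aligned partner.
*Ly6a*, against *Ly6c1*: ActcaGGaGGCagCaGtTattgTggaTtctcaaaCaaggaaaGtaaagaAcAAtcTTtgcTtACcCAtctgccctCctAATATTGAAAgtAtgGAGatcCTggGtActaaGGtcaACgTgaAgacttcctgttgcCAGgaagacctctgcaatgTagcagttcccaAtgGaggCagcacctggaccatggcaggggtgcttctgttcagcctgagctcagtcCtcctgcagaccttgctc
*Ly6c1*, against *Ly6a*: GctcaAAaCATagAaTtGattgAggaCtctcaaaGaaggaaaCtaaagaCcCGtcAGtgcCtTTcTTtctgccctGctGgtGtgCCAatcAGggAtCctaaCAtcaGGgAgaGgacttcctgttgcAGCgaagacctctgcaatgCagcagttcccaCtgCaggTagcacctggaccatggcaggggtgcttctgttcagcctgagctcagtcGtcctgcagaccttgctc
*Ly6c2*, which is not a member, is nearer to *Ly6c1*, with 97.7% identical bases. Of the 9 coding bases that differ, 6 lie in coding bases 1 to 240, printed here with those bases in capitals.
*Ly6c1*, against *Ly6c2*: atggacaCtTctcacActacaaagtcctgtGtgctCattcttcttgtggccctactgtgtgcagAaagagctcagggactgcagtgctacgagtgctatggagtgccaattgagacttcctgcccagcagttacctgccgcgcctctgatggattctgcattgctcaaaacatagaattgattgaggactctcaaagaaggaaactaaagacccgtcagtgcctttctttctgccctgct
*Ly6c2*, against *Ly6c1*: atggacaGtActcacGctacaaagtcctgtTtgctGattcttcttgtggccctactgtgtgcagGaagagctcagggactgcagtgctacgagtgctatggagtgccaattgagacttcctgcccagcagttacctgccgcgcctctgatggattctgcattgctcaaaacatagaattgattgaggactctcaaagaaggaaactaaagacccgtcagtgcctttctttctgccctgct
The counts come from RNA 3′ ends, so the last 500 transcript bases bear most on them. Of the 451 windows of 50 bases in that stretch of *Ly6c1*, 90 (20%) also occur in *Ly6c2*, and 20 of those of *Ly6a* (4.43%) occur in the predicted gene *I830127L07Rik*. *Ly6d*, *Ly6e*, *Psca* and *Lypd3* shared no such window with another gene. *Ly6c2* had 7 unique molecular identifiers (UMIs) in 2020 luminal-like cells and 3 in 2021 basal-like cells, against 1558 and 599 of *Ly6c1*. Reads that fit both genes are left out by the counting used, so *Ly6c1* may be counted low, and by how much was not tested.

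The study asked which prostate cells carry RFP driven by the proximal P2 promoter of *Runx1*, in a P2-*Runx1*:RFP reporter line of ICR (CD-1) mice older than 8 weeks. EPCAM+ cells were taken from 3 lobes, anterior (AP), dorsolateral (DLP) and ventral (VP), and sorted into RFP+ and RFP- fractions, given MULTI-seq lipid barcodes and run on 10x Genomics 3′ v3 chips, in 3 runs from separate pools of mice. Runs 1 and 2 also held mice castrated more than 4 weeks before, and the explant library held urogenital sinus of E15.5 embryos, at day 0 and after 1, 3 and 6 days of explant culture with 10 µM dihydrotestosterone. All adult groups carry the reporter, and castrated and intact mice of run 2 entered 1 library. The RFP+ cells of intact DLP come from run 3 alone, since their barcode failed in the other runs. The castrated lobes of run 1 were pooled before sorting and gave 11 luminal-like cells, so castration is described from run 2.

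The 4 libraries hold 35051876, 86381807, 40087244 and 121090404 UMIs in 2612, 6034, 3028 and 7474 cell barcodes for runs 1, 2 and 3 and the explants. After filters and assignment to 1 barcode, 824, 2194, 1673 and 5198 cells were kept, and any pair of libraries shared at most 6 cell barcodes. Clusters were built without the genes of the LY6/uPAR family and named from fixed markers. The adult cells held 2020 luminal-like and 2021 basal-like cells, besides 367 hematopoietic-like, 110 fibroblast-like, 94 mesonephric-like and 79 endothelial-like cells that the EPCAM sort had let through. Most hematopoietic-like cells, 323, came from run 2. The luminal-like cells fall into a Lum-D-like cluster of 484 cells, with *Wfdc2*, *Krt4* and *Psca* itself among its leading genes, a Lum-A-like cluster of 591 cells led by *Sbp* and *Spink1*, a Lum-B-like cluster of 393 cells led by *Tgm4*, and 3 unnamed clusters. Levels are UMIs of a gene in CPM (counts per 1000000 UMIs) over the cells summed in 1 run, lobe, RFP gate and class. A UMI stands for 1 captured RNA end, so no transcript length enters and levels of different genes are set side by side as captured molecules. Intervals are exact 95% Poisson intervals and cover counting error only, and the p-values measure the spread between 3 pools. In such sums, fewer cells of a type and less RNA per cell cannot be told apart.

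By cluster, the levels are a description with no test, since genes that move with the members were used to cluster. Within intact luminal-like cells, *Psca* was the most abundant of the 6 genes and sat almost wholly in 1 cluster. The Lum-D-like cluster held 446 of 1470 intact luminal-like cells (30.3%) and 93.8% of their *Psca* UMIs, 79.9% of those of *Ly6a*, 65.2% of *Ly6c1*, 51.3% of *Ly6e*, 49.4% of *Lypd3* and 32.8% of *Ly6d*. Its *Psca* level was 8791 CPM in run 1, 7976 CPM in run 2 and 6843 CPM in run 3. The Lum-A-like cluster had 72.3 CPM of *Psca* and the Lum-B-like cluster 50.2 CPM over all runs. A *Psca* UMI was found in 94.2% of the Lum-D-like cells, in 84 of 542 Lum-A-like cells, in 4.70% of the Lum-B-like cells, and in 3.00% of hematopoietic-like cells, which should lack it. The median depths were 11105 UMIs in the Lum-D-like, 48130.5 in the Lum-A-like and 7018 in the hematopoietic-like cells. With each cell thinned to 2000 UMIs the shares in the Lum-D-like, Lum-A-like and Lum-B-like clusters were 88.5%, 3.89% and 1.60%, and 1.38% in the hematopoietic-like cells.

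*Ly6a* was also highest in the Lum-D-like cluster, at a lower level, with 1090 CPM against 36.9 CPM in the Lum-A-like and 30.45 CPM in the Lum-B-like cluster. *Ly6c1* had 165 CPM in the Lum-D-like cluster against 13.4 CPM and 5.98 CPM in the other named clusters. Run 1 weighed on these values. Without it *Ly6a* was 592 CPM in the Lum-D-like cluster, and the Lum-B-like cluster had 6.68 CPM of *Ly6a*, 9.31 CPM of *Psca* and 0.202 CPM of *Ly6c1*. The Lum-A-like and Lum-B-like clusters also changed order in run 1, with 71.1 against 82.6 CPM of *Ly6a* and 129 against 139.9 CPM of *Psca*. The Lum-D-like cluster was the highest of the 3 named clusters for these genes in every run. An unnamed luminal-like cluster led by *Basp1*, with 21 intact cells, had more *Ly6c1*, 267 CPM over all runs. Its 11 cells of run 3 had 355 CPM of *Ly6a*, against 335.5 CPM in the Lum-D-like cluster of that run. The level of *Ly6e* differed less, with 669 CPM against 92.2 CPM and 110 CPM over all runs. Its Lum-B-like level was 80.2 CPM without run 1, 109 CPM without run 2 and 139 CPM without run 3. Over all runs, a *Ly6e* UMI was found in at least 49.6% of the cells of each named luminal-like cluster. With cells thinned as for *Psca*, these shares were 56.7%, 15.7% and 14.4% in the Lum-D-like, Lum-A-like and Lum-B-like clusters. *Ly6d* and *Lypd3* were low in all 3 named luminal-like clusters, at most 11.3 CPM and 7.08 CPM.

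**Figure D1:**
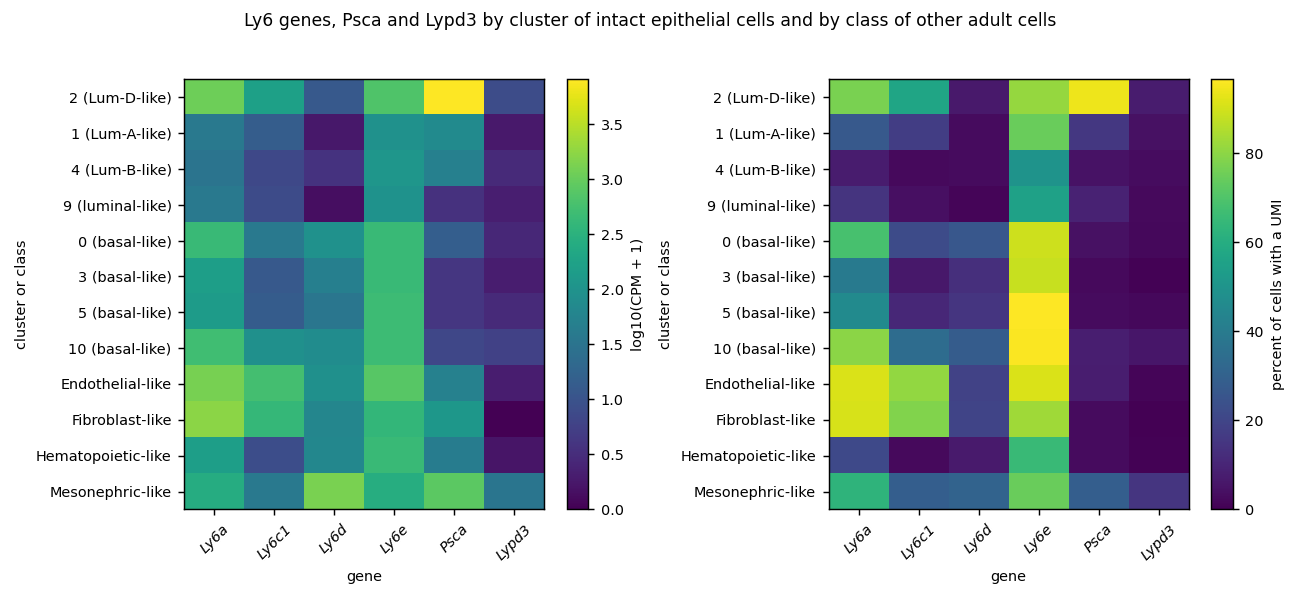
Levels of the 6 genes as log10(CPM + 1), left, and percent of cells with at least 1 UMI, right. Rows are clusters of intact epithelial cells and classes of other adult cells, with runs added together. The small *Basp1* cluster has no row, and the classes of other cells include cells of castrated mice. *Psca* is brightest in the Lum-D-like cluster (8079 CPM), and *Ly6a* and *Ly6c1* in fibroblast-like and endothelial-like cells. *Ly6d* is brightest in mesonephric-like cells (1311 CPM), a value carried by run 2, which was 2996 CPM against 116 and 20.8 CPM in runs 1 and 3.

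The RFP gate was compared first in AP luminal-like cells, where RFP+ cells were mostly Lum-D-like (178 of 211, 80 of 100 and 128 of 147 cells in runs 1, 2 and 3) and RFP- cells mostly Lum-B-like (68 of 78, 119 of 145 and 42 of 45). *Ly6a* was 1338, 481 and 289.9 CPM in RFP+ cells of runs 1, 2 and 3, and 124, 58.4 and 1.43 CPM in RFP- cells. *Ly6c1* was 148.2, 96.0 and 146 CPM in RFP+ cells, and 16.0, 13.7 and 0 CPM in RFP- cells, where 0 UMIs in run 3 allow up to 4.29 CPM. For both genes every RFP+ sum lay above every RFP- sum, and the share of all genes for which this holds was not counted. The edgeR quasi-likelihood test gave a log2 fold change of 3.30 ± 0.85 (SE) for *Ly6a* with a Benjamini-Hochberg adjusted p of 0.02. For *Ly6c1* it gave 3.31 ± 0.44 (SE) with an adjusted p of 0.00113 (edgeR). Without run 2 the call of *Ly6a* was lost (3.47, adjusted p 0.146, edgeR), as it was with DESeq2 (3.41, adjusted p 0.0582), while *Ly6c1* passed in both. These are the 2 members that passed among 5 tested, where the test called 24.2% of all 9022 genes.

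*Psca* was 6853, 4585 and 6046 CPM in RFP+ cells of the AP, and 1418, 220 and 2.86 CPM in RFP- cells. The RFP+ sums lay close together while the RFP- sums spanned a wide range. The groups did not overlap, and again the share of all genes without overlap was not counted. The log2 fold change was 3.39 ± 1.22 (SE), with an adjusted p of 0.075 from edgeR. With the run as a block, which pairs the fractions sorted from the same mice, it was 4.54 with an adjusted p of 0.00892 (edgeR), where 33.9% of genes were called, and without run 1 it passed as well (adjusted p 0.0207). *Ly6e* was 689, 439.7 and 319 CPM in RFP+ cells against 243, 129 and 20 CPM in RFP- cells, a log2 fold change of 1.75 ± 0.60 (SE) with an adjusted p of 0.0633 (edgeR). It passed with the block (1.98, adjusted p 0.00182), without run 1 (2.16, adjusted p 0.0477) and without run 3 (1.48, adjusted p 0.0202). The RFP gate was checked by *Runx1* itself, which was 99.3 to 135 CPM in these RFP+ sums and 4.29 to 19.05 CPM in the RFP- sums. In VP luminal-like cells the gates lay closer for *Runx1*, at 17.05, 14.9 and 20.8 CPM in RFP+ and 10.8, 8.63 and 4.04 CPM in RFP- sums of runs 1, 2 and 3.

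The RFP- values of *Psca* rested on few cells. In run 1, 5 Lum-D-like cells among 78 held 96.0% of the 2308 *Psca* UMIs of the RFP- sum, and 1 cell held 66.6%. In run 2, 4 Lum-D-like cells among 145 held 98.8%, and run 3 had none of these cells and 2 *Psca* UMIs. *Ly6a* was alike in run 2, where the same 4 cells held 94.4% of its UMIs, and in run 1, where the 5 cells held 69.8%. In the Lum-B-like cells alone, AP RFP- levels of *Psca* were 43.9, 1.26 and 3.05 CPM in runs 1, 2 and 3 and those of *Ly6a* were 9.68, 2.10 and 1.52 CPM. The part of a sort error, a barcode error or a doublet in these cells was not tested.

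*Ly6d* went another way in AP luminal-like cells, and 1 cell decided its direction. It was 15.2, 6.77 and 11.2 CPM in RFP+ cells of runs 1, 2 and 3, and 49.2, 1.79 and 0 CPM in RFP- cells. In the RFP- sum of run 1, 75 of 80 *Ly6d* UMIs came from 1 cell. The log2 fold change was -0.70 ± 0.94 (SE) with an adjusted p of 0.652, and without run 1 it was 2.50 with an adjusted p of 0.0253 (both edgeR). *Lypd3* was at most 8.85 CPM in any adult epithelial sum and did not pass the filter on low counts in any comparison, so it has no test.

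**Figure D2:**
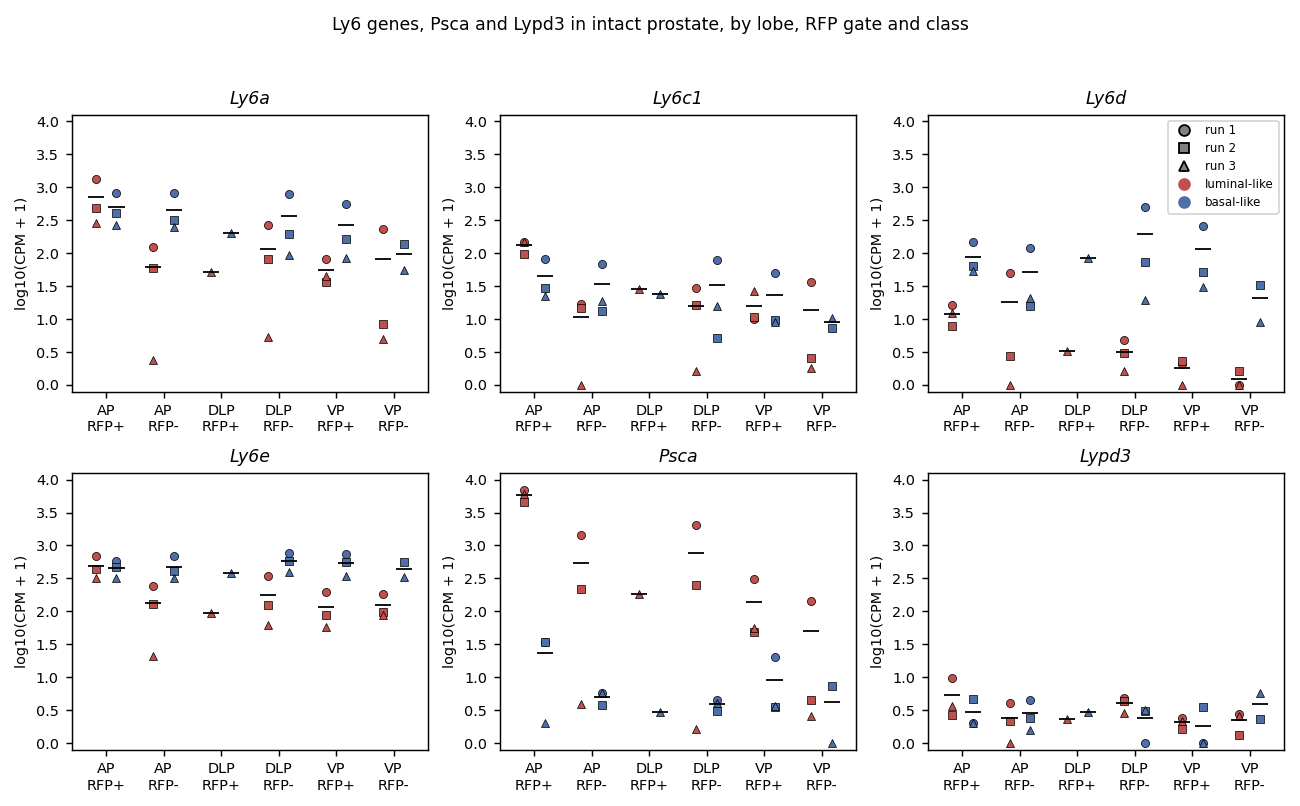
Levels of the 6 genes as log10(CPM + 1) in intact prostate, by lobe and RFP gate. Each point is 1 run (circle run 1, square run 2, triangle run 3), red for luminal-like and blue for basal-like cells, and bars are means of the runs' CPM. *Psca* in luminal-like AP RFP+ cells sits between 4585 and 6853 CPM in all runs, and the same gene in RFP- cells spreads from 2.86 to 1418 CPM.

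A list of 48 genes of the LY6/uPAR family, the members included, was read in the same comparison. Of the 42 in the matrix, 11 passed the filter on low counts and were tested. Of these, 6 were higher in RFP+ cells and 1 lower, where 12.9% of all genes were higher and 11.3% lower. Their median log2 fold change was 3.30 against -0.0047 over all genes. A gene can pass the filter through the group where it is high, so these values describe only the genes that passed. *Lynx1*, a modulator of acetylcholine receptors, rose by 4.38, *Lypd2* by 4.17 and *Plaur*, the urokinase receptor, by 4.097, with adjusted p of 0.00279, 0.0012 and 0.00599 (edgeR). The lower gene, named here after its value was seen, was *Cd59a*, an inhibitor of complement, with -2.37 and an adjusted p of 0.000377 (edgeR). Of 22 tested genes for synthesis and attachment of the GPI anchor, none was higher and *Dpm2* fell by 0.65 with an adjusted p of 0.0411 (edgeR). Among 12 tested interferon-stimulated genes, *Ifitm3* was higher (log2 fold change 1.40, adjusted p 0.00879) and *Stat2* lower (-1.05, adjusted p 0.03), both from edgeR.

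Markers of other cells were low in the AP luminal-like sums. The 7 hematopoietic markers summed to 81.1 to 240.5 CPM in RFP+ and 106 to 130 CPM in RFP- sums, with *Ptprc* at 0 in each RFP- sum and in the RFP+ sum of run 3. The 6 endothelial markers summed to 7.47 to 11.3 CPM in RFP+ and 24.3 to 44.3 CPM in RFP- sums, and the 6 fibroblast markers to 46.3 to 134 and 4.29 to 70.1 CPM. Fibroblast-like cells carry 1717 CPM of *Ly6a* and endothelial-like cells 558 CPM of *Ly6c1*, so cells with a UMI of *Ptprc*, *Pecam1*, *Cdh5*, *Col1a1* or *Col3a1* were left out in a second fit. The log2 fold changes were then 3.38 for *Ly6a* and 3.30 for *Ly6c1*, with adjusted p of 0.0128 and 0.000646 (edgeR).

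In VP luminal-like cells, where the Lum-A-like cluster was the largest in both gates, no member passed. *Psca* was 304, 47.9 and 54.0 CPM in RFP+ cells and 142.5, 3.52 and 1.62 CPM in RFP- cells of runs 1, 2 and 3. The RFP- sum of run 1 held 10 cells, and 1 of them carried 74 of its 79 *Psca* UMIs. The log2 fold change was 1.80 ± 1.25 (SE) with an adjusted p of 0.982, where 25 of 8024 genes (0.312%) were called, and with the run as a block it was 2.46 with an adjusted p of 0.0143, in a fit that called 1.45% (both edgeR). It also passed without run 1 (adjusted p 0.00255).

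*Ly6a* in the VP changed direction with that sum of 10 cells. It was 81.7, 36.1 and 44.2 CPM in RFP+ cells, and 233, 7.35 and 4.04 CPM in RFP- cells, with 86 of the 129 RFP- UMIs of run 1 in 1 cell. The log2 fold change was -0.30 ± 1.07 (SE) with an adjusted p of 1, and without run 1 it was 2.72 with an adjusted p of 0.00854 (both edgeR). Within the Lum-A-like cluster, *Ly6a* in RFP+ cells was 34.1 CPM (interval 30.4 to 38.2) against 8.45 CPM (5.09 to 13.2) in RFP- cells of run 2, and 44.4 CPM (39.5 to 49.6) against 4.37 CPM (1.19 to 11.2) in run 3. Single cells weighed on the RFP+ values as well, since 1 cell held 29.8% of the *Ly6a* UMIs of the whole RFP+ sum in run 2 and 1 held 33.2% in run 3. *Ly6c1* in the same cluster was 9.84 against 1.78 CPM in run 2 and 26.2 against 1.09 CPM in run 3. The gates overlapped for *Ly6e* in the VP, with 57.3 to 196 CPM in RFP+ and 88.1 to 182 CPM in RFP- sums.

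The effect of the gate was then compared between lobes and between classes in fits with an interaction term, chosen after the separate results were seen. The log2 fold change of *Ly6a* between gates was higher in AP than in VP luminal-like cells by 3.64 ± 1.57 (SE), with an adjusted p of 0.211 (edgeR). Against AP basal-like cells, it was higher in luminal-like cells by 2.82 ± 0.83 for *Ly6c1* and by 3.15 ± 1.04 for *Ly6a*, with adjusted p of 0.0624 and 0.0914 (edgeR). Without a block none of these differences between differences passed for any member, where 5.07% of genes were called between lobes and 6.33% between classes. With the run as a block, which pairs the sorts of a pool, the difference between classes passed for *Ly6a* (3.15 ± 0.44 SE, adjusted p 0.000357), *Ly6c1* (2.79 ± 0.64, adjusted p 0.00847) and *Ly6e* (1.87 ± 0.41, adjusted p 0.00654), in a fit that called 15.9% of genes (all edgeR). Between lobes, *Ly6e* passed with the block (2.16 ± 0.48 SE, adjusted p 0.0108) and *Ly6a* did not (2.74 ± 1.00 SE, adjusted p 0.094), in a fit that called 12.2% of genes (both edgeR). *Runx1* itself lay closer between the gates in AP basal-like cells, at 85.9 to 163 CPM in RFP+ and 69.9 to 116 CPM in RFP- sums.

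The lobes were compared within the RFP+ gate, where AP cells were mostly Lum-D-like and VP cells mostly Lum-A-like (44 of 51, 179 of 190 and 139 of 147). *Psca* was 6853, 4585 and 6046 CPM in the AP against 304, 47.9 and 54.0 CPM in the VP, a log2 fold change of 4.35 ± 0.72 (SE) with an adjusted p of 0.00326 (edgeR). *Ly6a* was higher in the AP by 2.53 ± 0.50 on the log2 scale (adjusted p 0.00678), *Ly6c1* by 1.93 (adjusted p 0.00956) and *Ly6d* by 2.68 (adjusted p 0.014), all from edgeR. These 4 of 5 tested members passed where 27.8% of all 9613 genes did, 15.4% of all genes being higher in the AP. Without run 2 the calls of *Ly6a* (2.36, adjusted p 0.053) and *Ly6c1* (1.71, adjusted p 0.0652) were lost, and without run 1 that of *Ly6d* (2.60, adjusted p 0.0612), all from edgeR. *Ly6d* here rested on low values, 6.77 to 15.2 CPM in the AP against 0 to 1.31 CPM in the VP. With classes set by marker UMIs of each cell its log2 fold change was -0.39. These marker classes were set over all adult cells, so they also hold cells of the hematopoietic-like and other classes. *Ly6e*, higher in the AP by 0.98 with an adjusted p of 0.11, passed with the run as a block, at 1.10 with an adjusted p of 0.00379 in a fit that called 39.6% of genes (both edgeR), and without run 1, at 1.39 (adjusted p 0.0116).

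Of 42 family genes in the matrix, 12 passed the filter and were tested, and 8 were higher and 1 lower in the RFP+ AP. Their median log2 fold change was 2.25 against 0.03 over all genes, with the same limit from the filter. *Plaur* (4.42), *Lypd2* (3.98) and *Lynx1* (3.099) were again among the higher ones. The lower gene was *Ly6g6d* (-1.77, adjusted p 0.0181, edgeR), named after its value was seen. Of 15 interferon-stimulated genes tested, none was higher and 6 were lower in the AP, where 12.4% of all genes were lower, such as *Irf7*, which fell by 2.96 (adjusted p 0.0103), and *Bst2*, which fell by 2.28 (adjusted p 0.00348, both edgeR). The estimate for *Ly6e*, itself an interferon-induced gene, had the other sign. Of 23 GPI anchor genes, *Pgap2* and *Pgap1* were lower by log2 fold changes of -1.91 and -1.64, with adjusted p of 0.00145 and 0.00373 (edgeR).

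Within the RFP- gate, no member passed between AP and VP luminal-like cells in the fit without a block. That fit called 15.6% of 7399 genes (7.69% higher and 7.95% lower in the AP). *Psca* was higher in the AP by 2.69 ± 1.58 (adjusted p 0.294) and, with the run as a block, by 3.24 (adjusted p 0.00246, with 18% of genes called), both from edgeR. *Ly6a*, *Ly6e* and *Ly6c1* had log2 fold changes of -1.02, -0.88 and -0.16, and without run 1 that of *Ly6a* was 1.69 (adjusted p 0.201, edgeR). Of 5 family genes tested, *Cd59a* was higher in the AP by 2.93 (adjusted p 0.00083, edgeR). Of 10 interferon-stimulated genes tested 6 were lower, such as *Irf7* with -3.51 (adjusted p 0.00754), and of 17 GPI anchor genes *Pgap2* was lower (-1.84, adjusted p 0.00171), both from edgeR.

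Between AP and DLP RFP- luminal-like cells, no member passed either, where 0.799% of 8138 genes were called, 0.516% higher and 0.283% lower in the AP. *Psca* in the DLP RFP- sums was 2044, 252.5 and 0.622 CPM in runs 1, 2 and 3, a spread as wide as that of the AP RFP- sums. In runs 1 and 2, 8 of 26 and 7 of 67 cells of these sums were Lum-D-like and held 99.9% and 98.9% of the *Psca* UMIs, and run 3 had no such cell among 75. *Ly6a* was 264, 80.3 and 4.35 CPM in the DLP, and its log2 fold change of -0.79 (adjusted p 0.893) was -0.91 with the run as a block (adjusted p 0.00498, with 7.32% of genes called), both from edgeR. In this comparison, as between VP gates and in both comparisons of basal-like cells, no gene of the 3 lists was called, of 7 to 8 family genes, 14 to 19 GPI anchor genes and 9 to 13 interferon-stimulated genes tested. The DLP RFP+ cells of run 3 had 184 CPM of *Psca*, and their 16 Lum-D-like cells alone had 2706 CPM.

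**Figure D3:**
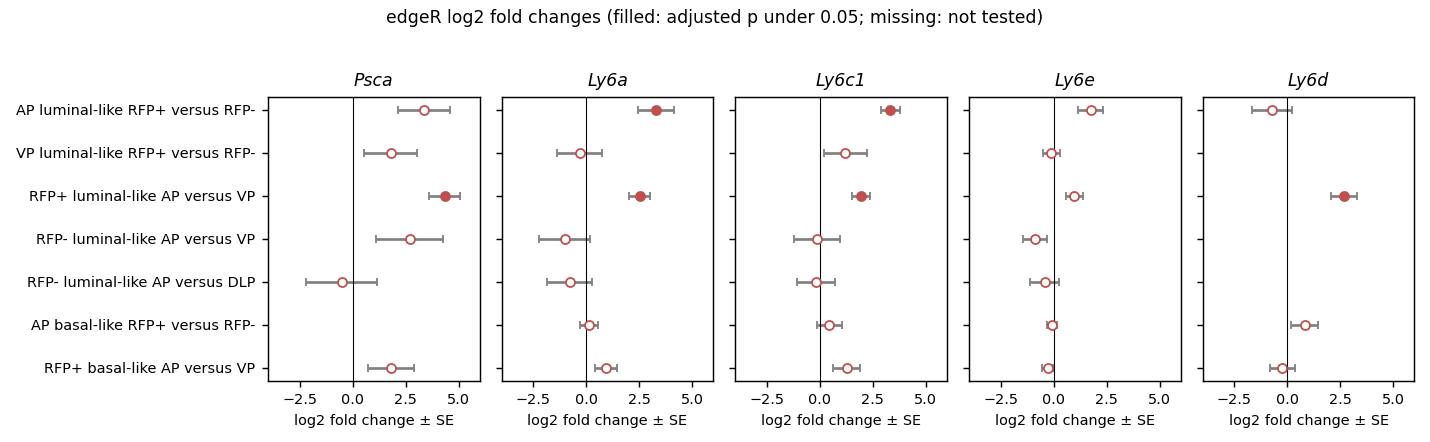
edgeR log2 fold changes with their standard errors in 7 comparisons, for the 5 genes that could be tested. Filled points passed an adjusted p of 0.05, which only *Ly6a* and *Ly6c1* did between RFP gates in the AP and *Psca*, *Ly6a*, *Ly6c1* and *Ly6d* did between AP and VP in RFP+ luminal-like cells.

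Basal-like cells, which are marked by *Krt5* and *Krt14*, differed from luminal-like cells in the levels of some of the 6 genes. Since classes come from clusters of these cells, their levels are a description with no test. *Ly6d* was 148.4, 61.9 and 52.9 CPM in AP RFP+ basal-like cells of runs 1, 2 and 3, and 15.2, 6.77 and 11.2 CPM in luminal-like cells of the same sorts. The mean log2 ratio of basal-like to luminal-like cells was 2.91 ± 0.58 (SD, n = 3). *Psca* ran the other way, with 32.97, 32.8 and 1.03 CPM in AP RFP+ basal-like cells, and 1 cell held 64.6% of those UMIs in run 1 and 68.2% in run 2. For *Ly6c1* the mean log2 ratio was -1.81 ± 0.96 (SD, n = 3). With classes set by marker UMIs of each cell the mean log2 ratios were -0.28 for *Ly6c1* and -1.21 for *Psca*, which was -9.12 by clusters.

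*Ly6a* and *Ly6e* did not set basal-like apart from luminal-like cells of the AP RFP+ sort, with mean log2 ratios of -0.35 ± 0.31 and -0.06 ± 0.17 (SD, n = 3), and that of *Ly6a* turned to 0.29 with classes set by marker UMIs. They did so in the RFP- sort. *Ly6a* there was 806, 319 and 249 CPM in basal-like and 124, 58.4 and 1.43 CPM in luminal-like cells, and *Ly6e* was 696, 413.5 and 317.5 CPM against 243, 129 and 20 CPM. In VP RFP+ cells of run 2, *Ly6e* was 555 CPM in basal-like and 87.6 CPM in luminal-like cells. *Ly6e* was thus the most even of the 6 across basal-like sums of intact mice, from 317.5 to 756 CPM. A *Ly6e* UMI was found in at least 84.0% of the cells of each of these sums.

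In basal-like cells no member passed between the RFP gates of the AP. The gates lay closer for *Runx1* here than in AP luminal-like cells. *Runx1* was 85.9, 163 and 158 CPM in RFP+ and 69.9, 100 and 116 CPM in RFP- sums of runs 1, 2 and 3. The edgeR test called 0 of 8534 genes, 93 at an unadjusted p under 0.05, and DESeq2 called 0 as well, with 48 at an unadjusted p under 0.05. *Ly6a* was 824, 406 and 269 CPM in RFP+ and 806, 319 and 249 CPM in RFP- basal-like cells. Its log2 fold change was 0.11, with a smaller value in RFP- cells in each run. *Ly6d* was higher in RFP+ cells in each run, with 119.6, 15.1 and 19.8 CPM in RFP- cells, and its log2 fold change of 0.82 passed only with the run as a block (0.85, adjusted p 0.00743, edgeR), a fit that called 0.48% of genes.

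Between RFP+ basal-like cells of AP and VP, the test called 0.566% of 7594 genes, 0.184% higher and 0.382% lower in the AP, and no member. *Ly6a* was 559.7, 164 and 83.4 CPM in the VP, below the AP value of the same run each time, and its log2 fold change of 0.93 (adjusted p 0.764) was 1.06 with the run as a block (adjusted p 2.02e-05). *Ly6c1* (1.10, adjusted p 0.0205) and *Psca* (1.97, adjusted p 0.0201) passed with the block as well, a fit that called 6.85% of genes (all edgeR). *Ly6a* was highest in run 1 in each of the 4 basal-like and 5 luminal-like intact sorts that all 3 runs hold, and lowest in run 3 in all of them but the luminal-like VP RFP+ cells.

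After castration, which removes androgens and shrinks the luminal compartment, members of AP RFP+ luminal-like cells differed from the intact pool in opposite directions. Each treatment is 1 pool in run 2, so there is no replicate check. *Psca* was 4585 CPM (interval 4486 to 4686) in 100 intact cells and 80.9 CPM (71.6 to 91.1) in 190 castrated cells, a log2 ratio of -5.82. *Ly6c1* was 96.0 CPM (82.1 to 112) in intact and 3.54 CPM (1.83 to 6.19) in castrated cells, a log2 ratio of -4.76. *Ly6e* was higher in castrated cells, with 1381 CPM (1341 to 1421) against 439.7 CPM (409 to 472), a log2 ratio of 1.65. *Ly6d* was 30.1 CPM in castrated and 6.77 CPM in intact cells, a log2 ratio of 2.15 (interval 1.29 to 3.15). *Ly6a* changed least, with 345 against 481 CPM. Its log2 ratio of -0.48 turned to 0.44 in the 25 castrated and 26 intact cells under 7500 UMIs. It turned to 0.20 with classes set by marker UMIs, which also hold cells of other types. The *Lypd3* ratio of 1.48 had an interval from -0.32 to 3.90.

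The cells behind these sums differ in kind. Of the castrated AP RFP+ luminal-like cells, 157 of 190 fell in an unnamed luminal-like cluster led by *Basp1* and *Lpl*, and 18 in the Lum-D-like cluster. The 18 cells held 94.9% of the *Psca* UMIs of the castrated sum, 1 of them 107 of 274, at 1556 CPM (interval 1373 to 1757), below the 8277 CPM (8087 to 8470) of the 80 Lum-D-like cells sorted from intact mice in that run. The 157 cells of the *Basp1* cluster had 4.20 CPM of *Psca* and 1706 CPM of *Ly6e*. *Ly6a* in the 18 Lum-D-like castrated cells was 1053 CPM (903.5 to 1221) against 893 CPM (832 to 958) in intact ones, while *Ly6c1* was 11.97 CPM (1.45 to 43.2), 2 UMIs, against 187 CPM (159 to 218). *Ly6a* and *Ly6c1*, both higher in the RFP+ gate of the AP, thus differed after castration.

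*Ly6e* was higher in castrated luminal-like cells of the AP RFP- and VP RFP+ sorts too. In AP RFP- cells *Ly6e* was 525 CPM in castrated and 129 CPM in intact cells, and in VP RFP+ cells 441 against 87.6 CPM. In DLP RFP- cells it was 166 CPM (131 to 207) against 126 CPM (108 to 145), intervals that overlap, and 1 of the 20 castrated cells held 27 of their 78 *Ly6e* UMIs. Most castrated VP RFP+ luminal-like cells, 106 of 126, were in an unnamed cluster led by *Ang4* and most intact ones in the Lum-A-like cluster. *Psca* over VP RFP+ cells was 43.9 CPM (35.98 to 52.96) in castrated and 47.9 CPM (43.5 to 52.6) in intact cells, but 1 castrated cell held 46 of the 108 UMIs. In the Lum-D-like cluster alone, 11 castrated VP RFP+ cells held 16 *Psca* UMIs and 5 intact ones 218. In RFP- cells *Psca* was 2.12 against 220 CPM in the AP and 2.13 against 252.5 CPM in the DLP, on 2 and 1 UMIs. The log2 ratios were -6.70 (-9.74 to -4.84) and -6.89 (-12.20 to -4.40). The castrated DLP RFP+ luminal-like cells, which have no intact partner in that run, had 496 CPM of *Ly6a*, 1237 CPM of *Ly6e* and 211.5 CPM of *Ly6d*. Of the 555 *Ly6d* UMIs in these 147 cells, 113 were in 1 cell and 4 cells held 50% or more.

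In AP basal-like cells, *Ly6a* and *Ly6e* differed by less than counting error. *Ly6a* was 366 CPM (332 to 401.5) in castrated and 406 CPM (372.5 to 441.5) in intact RFP+ cells, and *Ly6e* 444 CPM (407 to 483) against 463 CPM (428 to 501). *Ly6d* was 262 CPM (234 to 293) against 61.9 CPM (49.3 to 76.8), a log2 ratio of 2.08, and a *Ly6d* UMI was found in 69 of 150 castrated cells against 21.7% of intact cells although the castrated cells were shallower, with a median of 5369.5 UMIs. In VP RFP+ basal-like cells *Ly6e* was lower in castrated cells, 232 against 555 CPM, and *Ly6a* too, 61.03 against 164 CPM. *Psca* in AP RFP+ basal-like cells was 56.6 against 32.8 CPM, and 61 of the 68 castrated UMIs were in 1 cell.

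**Figure D4:**
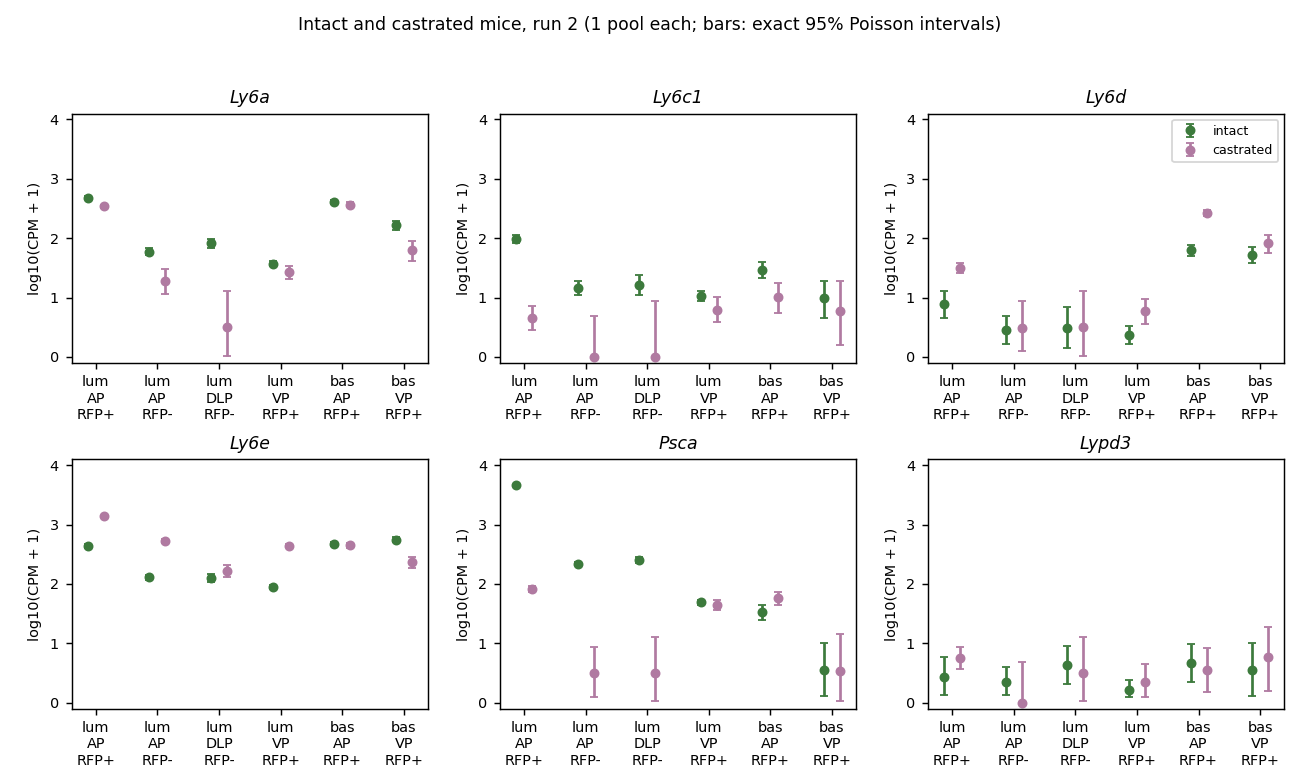
Levels of the 6 genes as log10(CPM + 1) in intact (green) and castrated (purple) cells of run 2, by class (lum, luminal-like, and bas, basal-like), lobe and RFP gate. Bars are exact 95% Poisson intervals from 1 pool each. In luminal-like AP RFP+ cells *Psca* goes from 4585 to 80.9 CPM and *Ly6e* from 439.7 to 1381 CPM.

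In the explants, prostatic epithelium forms as buds grow out of the urogenital sinus under androgen. Each day is 1 pool, with 470, 601, 1050 and 2051 prostatic epithelium-like cells at days 0, 1, 3 and 6. The days hold different clusters, since 97.7% of day 0 cells lay in a cluster led by *Hbb-bs* and *Isl1* that has no cell at day 6, so a ratio of days compares cells of different clusters. *Ly6a* was 13.7, 55.6, 149.9 and 153 CPM at these days, a log2 ratio of day 6 to day 0 of 3.48 (interval 3.25 to 3.71). *Ly6c1* was 1.34, 3.71, 19.4 and 17.2 CPM, a log2 ratio of 3.67 (2.96 to 4.49). *Ly6e* was 38.1, 74.7, 82.1 and 93.4 CPM. *Psca* and *Ly6d* were highest at day 3, with 70.6, 351, 471.5 and 137 CPM for *Psca* and 44.5, 60.1, 109 and 68.6 CPM for *Ly6d*. *Lypd3* was lower on each later day, with 29.65, 22.4, 17.6 and 14.2 CPM, and at day 0 it was above the 8.85 CPM of the highest adult epithelial sum.

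The clusters of the explants, built without family genes and again described with no test, held most members in separate places at days 3 and 6. The *Hbb-bs* cluster, 459 and 387 cells at days 0 and 1, held 97.7% and 64.4% of the cells of these days. It held 64.3% to 100% of each member's UMIs at day 0. At day 1 it held 65.25% of those of *Ly6a*, 72.3% of *Ly6c1*, 58.7% of *Ly6d*, 71.5% of *Ly6e* and 61.3% of *Lypd3*. These shares lay near its share of cells, and that of *Psca*, 26.0%, lay below it. Its levels were low, with 13.8 and 48.6 CPM of *Ly6a* and 45.9 and 121.9 CPM of *Psca* at these days. At days 3 and 6 a cluster with *Krt14* and *Krt5* among its leading genes held 70.8% and 76.55% of *Ly6a* UMIs and 60.7% and 81.8% of those of *Ly6c1*, with 36% and 29.9% of the cells. In this *Krt14* cluster *Ly6a* was 186, 367 and 462 CPM at days 1, 3 and 6, and *Ly6c1* 8.98, 40.8 and 55.5 CPM. A cluster with *Krt4* and *Krt6a* among its leading genes held 92.98% and 93.29% of *Psca* UMIs at days 3 and 6, 92.3% and 78.4% of those of *Ly6d* and 70.45% and 76.0% of those of *Lypd3*, and at day 1 it already held 73.6% of those of *Psca*. In it *Psca* was 2386, 1369, 3754 and 2751 CPM at days 0, 1, 3 and 6, where day 0 is 9 cells. *Ly6d* there was 215.5, 123, 859.7 and 1155 CPM and *Lypd3* 152, 45.2, 106 and 232 CPM. The share of cells in this cluster was 1.915%, 27.45%, 11.4% and 4.39% at the 4 days. *Ly6a* was also found in this *Krt4* cluster at day 6, with 488 CPM.

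The largest cluster of the explants, led by *Wif1* and *Gpx2*, was low in all but *Ly6e*. At day 6 its 1347 cells had 18.7 CPM of *Ly6a*, 3.90 CPM of *Psca* and 14.6 CPM of *Ly6d*, and 81.2 CPM of *Ly6e*. Other cells of the explants carried members as well. Urothelium-like cells had 447 CPM of *Ly6d* at day 6, in 50.4% of 119 cells, and *Ly6a* in mesonephric-like cells was 31.9, 63.5, 172 and 352 CPM at days 0, 1, 3 and 6. An unnamed cluster of 225 cells at day 6 had 645 CPM of *Ly6a*.

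**Figure D5:**
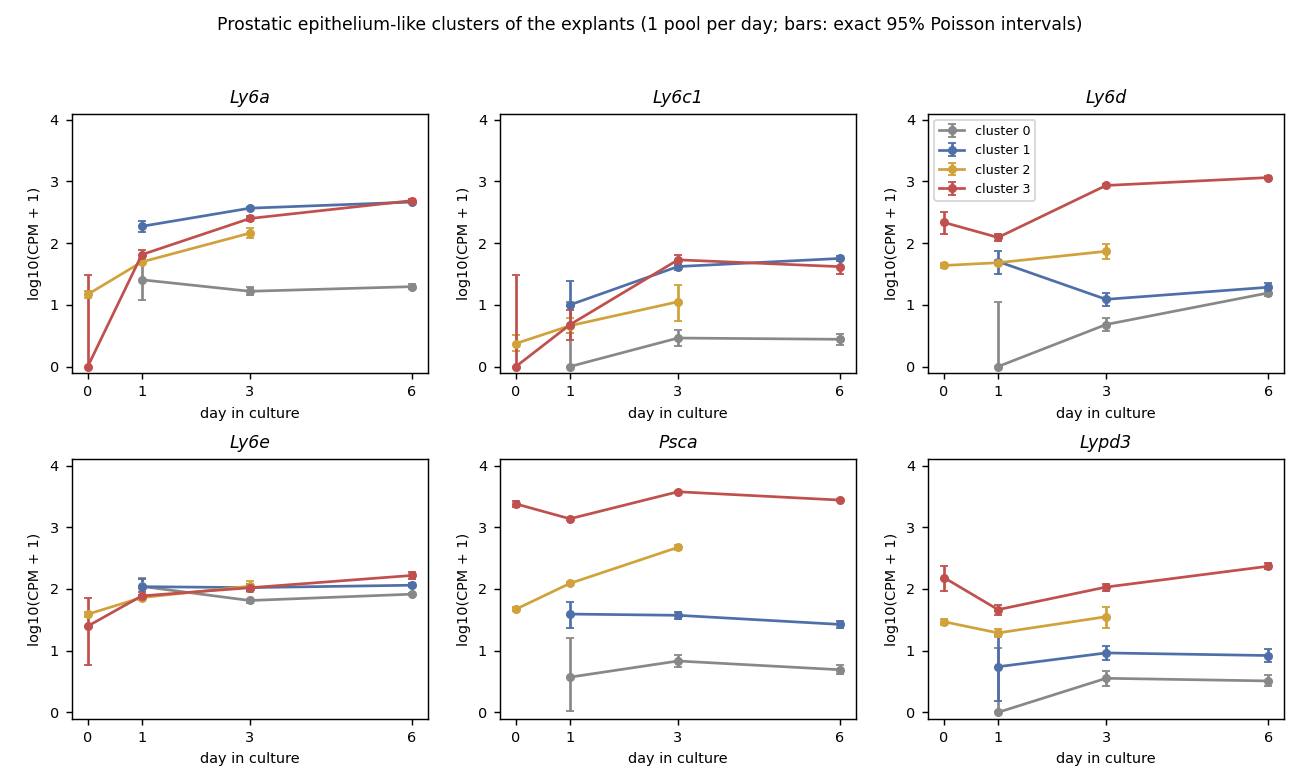
Levels of the 6 genes as log10(CPM + 1) in the 4 prostatic epithelium-like clusters of the explants by day in culture, with exact 95% Poisson intervals from 1 pool per day. Cluster 1 (blue, *Krt5* and *Krt14*) and cluster 3 (red, *Krt4* and *Krt6a*) lie close for *Ly6a* at day 6 (462 and 488 CPM), while cluster 3 is highest for *Psca*, *Ly6d* and *Lypd3*, and cluster 0 (*Wif1*) is grey and cluster 2 (*Hbb-bs*) yellow. Clusters with 1 cell or none on a day have no point there.

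The genes most like each member across 40 adult sums were sought among 4858 genes that averaged 20 CPM or more, by Pearson's r of log2(CPM + 1), as a description in which sums of 1 run share a library and sums of 1 class share cell type. *Psca* was nearest to *Pglyrp1* (r = 0.918), *Ppp1r1b* (0.8435) and *Krt4* (0.814). *Ly6a* was nearest to *Anxa3* (0.894), *Anxa2* (0.885) and *Plscr3* (0.873), and *Ly6c1* to *Sptssa* (0.788), *Krt7* and *Ly6a* (0.731). *Ly6d* was nearest to *Lmna* (0.905), *Cebpb* (0.901) and *Camk2n1* (0.890), and *Ly6e* to *Emp2* (0.900), *Car8* (0.897) and *Tspo* (0.879). *Lypd3*, with a mean of 2.05 CPM, had no gene above 0.604 (*Sprr2a3*). Among the members themselves, *Ly6d* and *Ly6e* (0.763) and *Ly6a* and *Ly6e* (0.762) were nearest, and *Psca* and *Ly6d* had -0.14 although their genes lie side by side among the members on chromosome 15.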

How the data were processed

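RNA 3′ ends of single cells were counted on the 10x Genomics platform in 3 adult libraries and 1 explant library. The authors aligned reads to mm10 (GRCm38) and counted them with Cell Ranger 3.1.0, and analysed them with Seurat 3.1.5 per the submitters' processing notes. The deposited values are raw UMI counts per gene and cell, with no normalization. Row names are gene symbols, of which 36 were unlike the deposited symbol table, none of them a member. No column of another series was present (0 columns), and cells were assigned to sorts from the deposited MULTI-seq barcode counts, with the thresholds that the study lists for each barcode.

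Adult cells were kept with 750 to 7500 genes and at most 10% mitochondrial UMIs, and explant cells with at least 1000 genes and at most 7.5%. The study's methods give an upper limit of 7500 UMIs for adult cells, which would remove most deep luminal cells, so it was applied to genes, and the UMI limit was an alternative. Cells with more than 1 barcode were removed as doublets, and leaving out the top 5% of cells by UMIs was an alternative. In runs 1 and 2 the barcode of intact DLP RFP+ cells failed, so a doublet with such a cell can carry only 1 barcode. The authors used DoubletFinder on these runs, and no such step was used here. Cells were clustered in Seurat 5.3.0 (R 4.3.3) with LY6/uPAR genes left out, after integration of the adult runs, and clusters were named from fixed markers.

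Counts were summed per run, lobe, RFP gate and class where at least 10 cells were present, giving 40 adult sums with 205028 to 9187443 UMIs. Sums of 3 runs per group were tested with edgeR 4.0.16 (TMM, filterByExpr, quasi-likelihood test, two-sided, Benjamini-Hochberg over all genes tested, threshold 0.05), with DESeq2 1.42.0 as an alternative. The test was checked on simulated counts with the same dispersion for all genes and no run effect. That check therefore does not cover the spread between these pools. Numbered runs pair the groups, since fractions of a run were sorted from the same pool of mice. Sums of the same run deviated together, with Pearson's r of 0.0218 to 0.66 over 21 pairs and above 0.1 in 20 of them. Exact 95% Poisson intervals, and 3 UMIs as the limit that a count of 0 allows, were computed with scipy 1.17.1 (Python 3.11.15), and figures with matplotlib 3.10.9. Cells were thinned to 2000 UMIs to compare shares of cells, which left out 33 adult cells. Coding sequences were read from GENCODE transcripts of GRCm38.

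The 6 members, the lists of 48 LY6/uPAR, 28 GPI anchor and 18 interferon-stimulated genes and the tests were chosen with earlier results of these data known. All members were named in each comparison, and from each list at most 4 genes past the threshold by size of the log2 fold change. The fits with an interaction term were added after the separate results were seen, and their fits with the run as a block after those.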

Additional observations from a re-analysis of the deposited data

Results flagged for a closer look

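*Ly6e* differed in opposite directions between castrated and intact VP RFP+ cells of run 2. The log2 ratio of castrated to intact cells was 2.33 in luminal-like and -1.26 in basal-like cells. Most castrated luminal-like cells of this sort were in the *Ang4* cluster and most intact ones in the Lum-A-like cluster. Treatment, pool and kind of cell cannot be told apart here. *Psca* in AP RFP+ cells had a ratio of -5.82 in luminal-like and 0.79 in basal-like cells, the second resting on 1 castrated cell with 61 of 68 UMIs. These differences between classes were not tested, since each treatment is 1 pool.

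Cells outside the epithelial comparisons carried members above the highest epithelial sum of adult mice. These classes hold cells of intact and castrated mice added together. Fibroblast-like cells had 1717 CPM of *Ly6a*, against 1338 CPM in the highest epithelial sum. *Ly6c1* was 558 CPM in endothelial-like and 398 CPM in fibroblast-like cells, against 148.2 CPM. Mesonephric-like cells, with markers of the seminal vesicle and its duct, had 1311 CPM of *Ly6d* and 32.1 CPM of *Lypd3*, against 494 and 8.85 CPM. These 2 values rest on run 2, with 36 of the 94 cells and 2001 of 2040 *Ly6d* UMIs, and without it they were 43.9 and 1.13 CPM. Some of the run 2 cells came from castrated mice, and run and treatment were not separated here.

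The effect of the RFP gate differed in fits with an interaction term and the run as a block (edgeR). Between AP luminal-like and basal-like cells the log2 differences were 3.15 for *Ly6a*, 2.79 for *Ly6c1* and 1.87 for *Ly6e*, and between AP and VP luminal-like cells 2.16 for *Ly6e*, and without the block none of them passed.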

How the results depend on the processing

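Alternative values of log2 fold changes of single members were counted together with differences in shares of cells after thinning. Of these, 255 stayed the same, which means direction and side of the threshold for fold changes and a change within counting error for shares. Among the fold changes, 35 passed where the reported value had not, 5 lost the call and 26 changed direction. Among the differences in shares, 7 moved by more than counting error. Thinning to 2000 UMIs kept the direction of each difference in the share of cells with a UMI. Leaving out 1 run gave 703 to 1777 genes between AP luminal-like gates (2184 as reported), 0 to 46 between VP gates (25), 1025 to 2436 between RFP+ AP and VP (2677), 317 to 1056 between RFP- AP and VP (1157), 2 to 62 between AP and DLP (65) and 0 to 48 between RFP+ basal-like AP and VP (43), with 294 and 217 at an unadjusted p under 0.05 (edgeR) where the VP gates gave 0, and 450 where the basal-like lobes did. Without a filter on low counts the calls were 138 between VP gates, 1793 between RFP- AP and VP, 351 between AP and DLP, 5 between AP basal-like gates (0) and 250 between basal-like lobes, and with DESeq2 they were 61, 121 and 76 for VP gates, AP against DLP and basal-like lobes.

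With the run as a replicate block the calls were 116 between VP gates, 596 between AP and DLP, 41 between AP basal-like gates and 520 between basal-like lobes, and *Ly6a* between VP gates turned to 0.71. The block changed the calls of members printed in the report and no other member's. With classes set by marker UMIs of each cell, AP against DLP gave 166 calls and the basal-like lobes 13. Under the limit of 7500 UMIs per cell, AP gates gave 287 calls, AP against DLP 1 and the basal-like lobes 0 of 2572 (5.75% at an unadjusted p under 0.05, edgeR), and for both VP luminal-like comparisons and VP gates no value could be had, since too few cells were left. Without the top 5% of cells, VP gates gave 41 calls.

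Directions turned mainly for members with few UMIs in VP RFP- cells, where run 1 is 10 cells. *Ly6a* between VP gates was 3.07 with at least 20 cells per sum, 2.23 with marker classes, 3.50 without cells holding UMIs of other types and 3.69 without the top 5%, and ranged from -0.84 to 2.72 with 1 run left out. *Ly6e* there was 0.18, 0.20, 0.24 and 0.68 in the same order and ranged from -0.37 to 0.11, and *Ly6c1* from -0.17 to 3.74. Between RFP- AP and VP, *Ly6a* was 2.34, 2.79 and 2.69 and *Ly6c1* 2.08, 2.53 and 3.94 with at least 20 cells, without other-type cells and without the top 5%, and *Ly6a* ranged from -1.83 to 1.69. *Ly6d* ranged from -1.22 to 2.50 between AP gates and was -0.39 between RFP+ lobes with marker classes. *Ly6c1* between AP and DLP was 0.037 without other-type cells and ranged from -0.59 to 0.17. In basal-like cells *Ly6e* between AP gates ranged from -0.16 to 0.077, and *Ly6d* between lobes from -0.47 to 0.38, with 0.024 under 7500 UMIs.

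After castration, AP RFP+ luminal-like log2 ratios under 7500 UMIs were 0.44 for *Ly6a*, -3.78 for *Ly6c1*, 0.86 for *Ly6e* and -4.30 for *Psca*. With marker classes they were 0.20, -3.37, 1.78 and -4.81, and without the top 5% *Ly6a* was -0.82, *Ly6e* 1.33 and *Psca* -6.06. Explant ratios of day 6 to day 0 without the top 5% were 3.02 for *Ly6a*, 0.45 for *Ly6d* and 0.55 for *Psca*, and over all assigned cells 1.05 for *Ly6d*, 0.87 for *Ly6e*, 0.58 for *Psca* and -0.71 for *Lypd3*. The AP RFP+ basal-like to luminal-like ratio was 0.29 for *Ly6a*, -0.28 for *Ly6c1* and -1.21 for *Psca* with marker classes, and -0.69 for *Ly6a*, -3.24 for *Ly6c1* and -0.45 for *Ly6e* under 7500 UMIs. The causes of these changes were not tested. *Lypd3* had at most 32 UMIs in any adult epithelial sum.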

Other observations

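In intact mice, 21 luminal-like cells fell in the *Basp1* cluster that holds most castrated AP RFP+ cells, and they had 2360 CPM of *Psca* (interval 2202 to 2527), 833 CPM of *Ly6a* (740 to 934) and 273 CPM of *Ly6d* (221 to 333). These values differed widely between runs, since the 11 cells of run 3 had 479, 355 and 100.5 CPM, and without run 1, which gave 7 of the 21 cells, they were 374, 384 and 87.8 CPM. The 94 mesonephric-like cells of intact and castrated mice had 826 CPM of *Psca*, and 66.4 CPM without run 2. *Ly6c2*, near absent from the epithelium, was 50.95 CPM in hematopoietic-like cells, where *Ly6c1* was 7.33 CPM.

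The castrated lobes of run 1, pooled before sorting, gave 11 luminal-like RFP+ cells with 39.0 CPM of *Psca*, 127 CPM of *Ly6a*, 693 CPM of *Ly6e* and 73.2 CPM of *Ly6d*. *Ly6c1* and *Lypd3* had 0 UMIs there, which allows up to 14.6 CPM.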
